A study of Rattus norvegicus with 15 samples.

Results

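Hydroxysteroid and short-chain dehydrogenases were followed in rat liver through 8 listed genes, Hsd3b5, Dhrs7l1, Srd5a1, Hsd11b1, Hsd17b2, Hsd17b11, Hsd17b13 and Dhrs7. A gene entered through every probe set whose array annotation names it alone (by its Entrez number), which gave 7 probe sets for 7 genes, 1 each, among 31042 probe sets in all. Srd5a1, the steroid reductase of the list that does not belong to the short-chain family, is not analysed here. All 7 probe sets passed the filter on dim probe sets and were among the 18625 tested. The list was chosen from results of these data: Hsd3b5 and Dhrs7l1 were selected on their low levels with genistein, so their comparisons with genistein are a description, without a test.

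The livers came from 15 male Sprague-Dawley rats bought at 4 weeks of age, given 5 days to adapt and then fed for 14 days. A group of 5 ate a diet with 2 g/kg genistein, another 5 ate a diet with 2 g/kg daidzein, and 5 control rats ate the same basal diet without isoflavone. The basal diet that all 15 rats shared contained casein at 200 g/kg and palm oil at 100 g/kg. The isoflavones, both from soy, differ by a single hydroxyl group, and the study compares how they act on lipid metabolism in the liver. Each liver was measured on its own 1-channel Affymetrix expression array, with no pooling stated, and rats are numbered by the replicate number in the sample titles. The submitters' descriptions number some rats otherwise, and that of genistein rat 3 carries the suffix "-re", which the labels do not explain.

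Short-chain dehydrogenases are enzymes that move hydride between NAD or NADP and an alcohol or ketone group. Hydroxysteroid dehydrogenases use this reaction to switch steroid hormones between active and inactive forms, and the liver is the main site where androgens, estrogens and glucocorticoids are cleared or regenerated. Several of these enzymes differ between male and female rat liver under the control of growth hormone secretion. Others of the family sit on lipid droplets or act on retinoids and fatty acids.

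Levels and changes below are in log2 units, recovered by rescaling the scores that the authors deposited. A level of 0 has no meaning of its own and each probe set has its own brightness, so levels are compared between rats and never between genes. A probe set was called where the adjusted p of the limma fit over all 18625 probe sets was under 0.05. Of 6 measured hepatocyte markers, Alb, Apoa1, Ttr, Serpina1 and Fgb had mean levels of 8.25 to 9.29 in each diet. The sixth, Tat, had 3.99 with genistein, 4.50 with daidzein and 5.01 in control, and was not called (limma). All 6 passed the filter, and correlations between arrays over the tested probe sets lay between 0.931 and 0.969. Of the 23 measured markers of cholangiocytes, Kupffer, stellate and endothelial cells, adipocytes and other steroid-making cells, 15 passed the filter and none of these was called in any comparison (limma); at most 0.322% of all tested probe sets were, so a count of 0 among 15 says little about cell makeup. In whole liver, fewer cells of a type and less RNA per cell cannot be told apart. With 5 rats per diet, the number of arrays sets how precise each value can be.

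Hsd3b5 and Dhrs7l1 were far lower in the livers of genistein-fed rats, and the rats differed widely among themselves. Hsd3b5 encodes the hydroxysteroid dehydrogenase of male rat liver that works mainly as an NADPH-dependent ketosteroid reductase and so inactivates dihydrotestosterone. Its level was 0.90, 1.41, 0.34, 5.13 and 3.81 in genistein rats 1 to 5, against 5.94, 5.45, 5.69, 4.82 and 6.10 in daidzein rats and 6.16, 5.78, 6.33, 6.08 and 5.39 in control rats. Every genistein rat lay below every control rat, while genistein rat 4 lay within the daidzein range. The means were 2.32 ± 2.05 with genistein, 5.60 ± 0.50 with daidzein and 5.95 ± 0.37 in control (SD, n = 5 each), a 12.3-fold lower mean with genistein than in control and a 9.71-fold lower mean than with daidzein. Only 3 of the 18625 probe sets had a more negative change against control.

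Dhrs7l1 encodes a short-chain dehydrogenase related to Dhrs7. Its level was 0.95, -0.61, -0.38, 4.51 and 2.21 in genistein rats 1 to 5, against 6.09, 5.24, 6.67, 5.38 and 6.33 in daidzein rats and 6.26, 5.88, 5.98, 6.21 and 6.03 in control rats. All 5 genistein rats were below all 10 other rats. The means were 1.33 ± 2.11 with genistein, 5.94 ± 0.62 with daidzein and 6.07 ± 0.16 in control (SD, n = 5 each), so that the genistein mean was 26.7-fold below control and 24.4-fold below daidzein. No other tested probe set had a change as negative in either comparison. In genistein rats 2 and 3 the probe set lay under the filter level of -0.30, at the 28.8th and 35.1st percentile of its array, where any background correction weighs on the value. When 16 was added to every intensity on the linear scale, the log2 change against control was -4.40 in place of -4.74 for Dhrs7l1 and -3.44 in place of -3.63 for Hsd3b5.

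**Figure D1:**
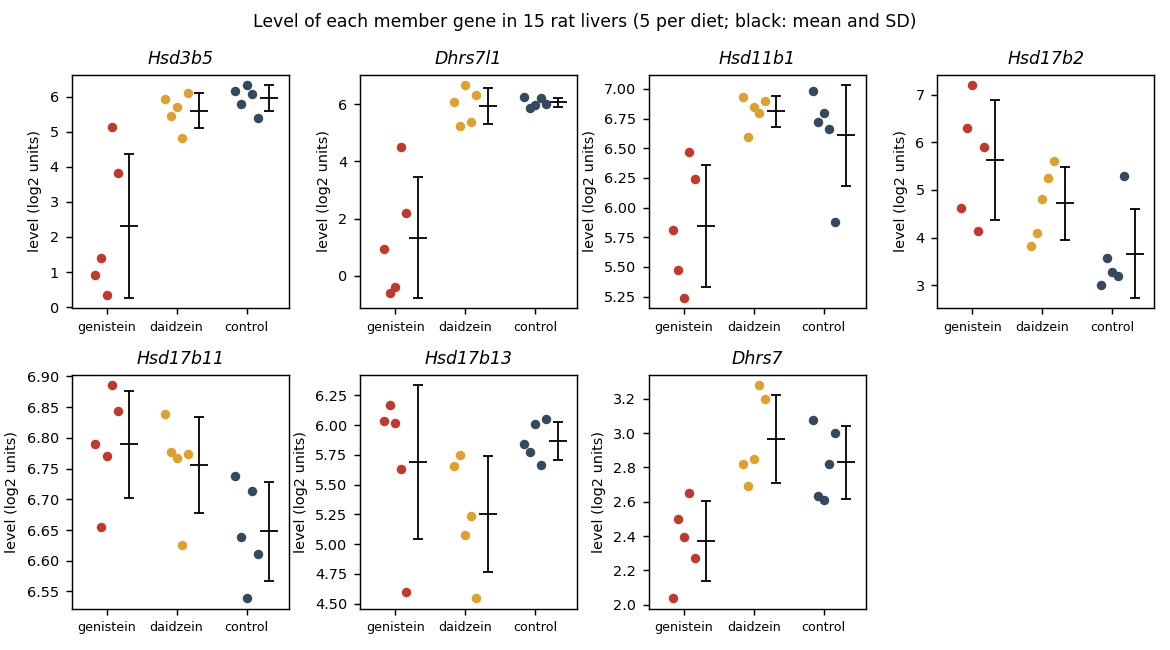
Level (log2 units, own axis per gene) of the 7 measured genes in each of 15 rat livers, with genistein, daidzein and control from left to right; black marks show mean and SD (n = 5). The genistein rats spread from 0.34 to 5.13 for Hsd3b5 and from -0.61 to 4.51 for Dhrs7l1, below all control rats in both.

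The same genistein rats were low in both genes. Relative to the control mean, Hsd3b5 was 33.0-, 23.2- and 48.6-fold lower in genistein rats 1, 2 and 3, but 1.76-fold lower in rat 4 and 4.38-fold lower in rat 5. Dhrs7l1 was 34.8-fold lower in rat 1, 2.95-fold lower in rat 4 and 14.6-fold lower in rat 5. It was lowest in rats 2 and 3, where no fold is given because the level lay under the filter level; the fold between diet means takes in these 2 values and is as uncertain. Rat 4 was thus the highest and rat 5 the next highest of the 5 for both. Without genistein rat 4 the log2 changes against control were -4.33 for Hsd3b5 and -5.53 for Dhrs7l1. Across the 15 rats Pearson's r between both genes was 0.96, and it was 0.89 after the mean of each diet was taken off. These correlations describe 15 arrays that share a normalization, and 3 genistein rats carry much of the range.

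Dhrs7l1 and Dhrs7 are neighbours on rat chromosome 6 with 0 annotated genes between them in the GRCr8 assembly, and Hsd17b11 and Hsd17b13 are neighbours on chromosome 14, also with 0 between. The array annotation names no build, so positions are those of the RefSeq promoter table (GRCr8), which covers 250 bases before to 50 bases after a gene's start and held 4 of the 7 measured genes. Their promoters are shown because in each pair the genes share a strand and a neighbourhood. Over the 15 rats Pearson's r was 0.73 for Dhrs7l1 and Dhrs7, and -0.38 for Hsd17b11 and Hsd17b13. After diet means were taken off, r was 0.21 and -0.30. Capitals mark CG dinucleotides. Each sequence reads 5′ to 3′ along its gene.
Dhrs7l1 (chr6:97047850-97048149, minus strand): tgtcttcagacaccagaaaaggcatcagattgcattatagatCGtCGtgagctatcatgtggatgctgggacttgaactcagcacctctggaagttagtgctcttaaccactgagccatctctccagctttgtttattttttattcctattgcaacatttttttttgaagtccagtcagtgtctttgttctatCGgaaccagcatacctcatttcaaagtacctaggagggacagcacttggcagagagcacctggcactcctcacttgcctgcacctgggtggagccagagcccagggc
Dhrs7 (chr6:97083695-97083994, minus strand): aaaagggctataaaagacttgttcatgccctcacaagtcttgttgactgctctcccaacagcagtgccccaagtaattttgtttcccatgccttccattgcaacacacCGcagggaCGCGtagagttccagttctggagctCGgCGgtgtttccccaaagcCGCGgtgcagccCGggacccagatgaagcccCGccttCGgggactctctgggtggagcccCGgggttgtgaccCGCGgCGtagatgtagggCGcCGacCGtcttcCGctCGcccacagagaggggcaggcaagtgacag
Hsd17b13 (chr14:6056539-6056838, plus strand): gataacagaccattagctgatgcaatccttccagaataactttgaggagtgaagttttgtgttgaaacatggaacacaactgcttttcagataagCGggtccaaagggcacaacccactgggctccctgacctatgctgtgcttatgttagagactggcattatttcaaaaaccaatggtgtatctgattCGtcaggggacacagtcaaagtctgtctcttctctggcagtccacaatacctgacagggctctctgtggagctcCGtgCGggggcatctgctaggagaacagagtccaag
Hsd17b11 (chr14:6016440-6016739, plus strand): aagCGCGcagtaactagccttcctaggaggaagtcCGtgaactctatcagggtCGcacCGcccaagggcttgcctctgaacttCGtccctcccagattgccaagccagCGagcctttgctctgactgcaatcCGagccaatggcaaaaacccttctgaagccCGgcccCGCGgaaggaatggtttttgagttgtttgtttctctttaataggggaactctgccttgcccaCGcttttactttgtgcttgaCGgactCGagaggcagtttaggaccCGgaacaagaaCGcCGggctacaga

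The promoter windows differed in base composition within each pair. Dhrs7l1 had 3 CG dinucleotides and 47.3% G and C, against 19 and 60% for Dhrs7. Hsd17b13 had 4 and 48%, against 17 and 54.7% for Hsd17b11. Among the 33469 promoters of the table the median was 7 CG dinucleotides, 69.3% held more than Dhrs7l1 and 24.2% held more than Dhrs7. The palindromic motif TTCNNNGAA, the half-site pair bound by STAT proteins, was searched on both strands and was found in 0 of these 4 windows, while 8.87% of all windows held it. The motif TATAAA, read on either strand, occurred once, in Dhrs7, and 14.2% of all windows held it. A match or its absence describes these letters only.

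Dhrs7 itself encodes an endoplasmic reticulum reductase that acts on steroids and other carbonyl compounds in human studies. Its level was 2.04, 2.50, 2.39, 2.65 and 2.27 in genistein rats 1 to 5, against 2.82, 2.69, 2.85, 3.28 and 3.20 in daidzein rats and 3.08, 2.63, 2.61, 2.82 and 3.00 in control rats. All genistein rats lay below all daidzein rats, and 4 of 5 lay below all control rats. The log2 change was -0.46 for genistein against control (95% interval -0.76 to -0.15, limma adjusted p = 0.221) and -0.59 for genistein against daidzein (interval -0.90 to -0.29, limma adjusted p = 0.121), and neither was called. Its genistein SD of 0.23 was close to the 0.25 with daidzein and 0.21 in control (n = 5 each), unlike that of its neighbour. Across the 15 rats Pearson's r between the neighbours was 0.73, and 0.21 after diet means were taken off, which describes these arrays only. Genistein rat 1 was the lowest of the 5 for Dhrs7 but not for Dhrs7l1, where rats 2 and 3 lay below it.

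Hsd11b1 encodes the reductase that regenerates active corticosterone from its inactive keto form with NADPH supplied by H6pd, and its level is higher in male than in female rat liver. Its level was 5.81, 5.47, 5.24, 6.47 and 6.24 in genistein rats 1 to 5, against 6.93, 6.60, 6.85, 6.79 and 6.89 in daidzein rats and 6.98, 6.72, 6.80, 6.66 and 5.88 in control rats. All genistein rats lay below all daidzein rats, and control rat 5 lay far below the other 4 controls and overlapped the genistein rats. Hsd11b1 had a log2 change of -0.97 between genistein and daidzein (interval -1.46 to -0.47, limma adjusted p = 0.120) and of -0.76 between genistein and control (interval -1.25 to -0.27, limma adjusted p = 0.199), neither of them called. Without genistein rat 4 the difference from daidzein was -1.12 with an adjusted p of 0.0329 (limma), and without control rat 5 the difference from control was -0.94 with an adjusted p of 0.0683. Without genistein rat 3 the differences were smaller, -0.81 from daidzein (limma adjusted p = 0.271) and -0.61 from control (limma adjusted p = 0.408), and the difference from daidzein was called in 1 of 25 alternatives. For daidzein against control the change was 0.20 (interval -0.29 to 0.70), and 0.02 without control rat 5.

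Hsd17b2 encodes the oxidative dehydrogenase that turns estradiol into estrone and testosterone into androstenedione. Its level was 4.61, 6.29, 7.20, 4.13 and 5.91 in genistein rats 1 to 5, against 3.81, 4.09, 4.81, 5.25 and 5.60 in daidzein rats and 3.00, 3.56, 3.28, 3.19 and 5.28 in control rats. All 10 isoflavone-fed rats lay above the control mean of 3.66, but control rat 5 reached into both ranges. Means were 5.63 ± 1.25 with genistein, 4.71 ± 0.76 with daidzein and 3.66 ± 0.93 in control (SD, n = 5 each). Against control the log2 change was 1.97 for genistein (3.90-fold, interval 0.74 to 3.20, limma adjusted p = 0.183) and 1.05 for daidzein (2.07-fold, interval -0.18 to 2.28, limma adjusted p = 0.659), and neither was called. These comparisons share the control rats. In size the genistein change ranked high, with 15 of 18625 probe sets further up. A rank by size takes no account of spread, and few tested probe sets had a larger SD than Hsd17b2 (0.687% with genistein, 1.43% in control). Without control rat 5 the change against control was 2.37 (limma adjusted p = 0.0825) for genistein and 1.46 (limma adjusted p = 0.519) for daidzein. Without genistein rat 3 the genistein change was 1.57 (limma adjusted p = 0.381). The difference between the isoflavones was 0.91 (interval -0.32 to 2.14, limma adjusted p = 0.700), within the spread of the rats.

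Among the genistein rats, rat 3 had the lowest Hsd3b5 and the highest Hsd17b2, and rat 4 had the highest Hsd3b5 and the lowest Hsd17b2. Rat 1 did not follow this, with the next to lowest level of both genes. Over 15 rats Pearson's r of Hsd3b5 was 0.89 with Hsd11b1 and -0.70 with Hsd17b2. After diet means were taken off the values were 0.79 and -0.50, and that between Hsd11b1 and Hsd17b2 was -0.73, where control rat 5 was low in the first and high in the second. These are descriptions of 15 arrays.

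**Figure D2:**
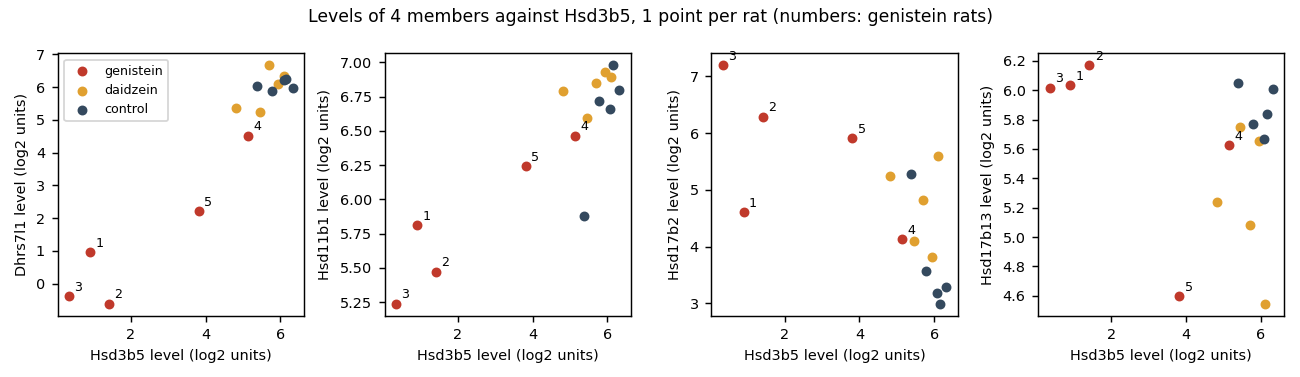
Levels (log2 units) of Dhrs7l1, Hsd11b1, Hsd17b2 and Hsd17b13 against that of Hsd3b5, with 1 point per rat, coloured genistein, daidzein or control, and genistein rats numbered. Genistein rats 1, 2 and 3 stand apart on the Hsd3b5 axis at 0.90, 1.41 and 0.34, and rat 4 at 5.13 lies beside the other diets.

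Hsd17b13 and Hsd17b11 encode lipid droplet proteins of the family. Hsd17b13, found mainly in hepatocytes, had a level of 6.03, 6.17, 6.02, 5.63 and 4.60 in genistein rats 1 to 5, against 5.66, 5.75, 5.08, 5.24 and 4.55 in daidzein rats and 5.84, 5.77, 6.01, 5.67 and 6.05 in control rats. The control rats were close together (SD 0.16), the other diets were not (SD 0.64 with genistein and 0.48 with daidzein, n = 5 each), and genistein rat 5 and daidzein rat 5 were the lowest. All 5 daidzein rats lay below the control mean of 5.87 and 4 lay below every control rat. The log2 change was -0.61 for daidzein against control (interval -1.20 to -0.02, limma adjusted p = 0.593) and -0.18 for genistein against control (interval -0.77 to 0.41, limma adjusted p = 0.883). Genistein minus daidzein was 0.44 (interval -0.16 to 1.03, limma adjusted p = 0.707). None of the 3 was called, and without genistein rat 5 the genistein change turned to 0.09.

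Hsd17b11, which oxidises androstanediol in human studies, was the steadiest of the 7 genes. It had 6.66 to 6.89 in genistein rats (median 6.79), 6.63 to 6.84 in daidzein rats (median 6.77) and 6.54 to 6.74 in control rats (median 6.64). The groups overlapped. Its change was 0.14 for genistein against control (interval -0.01 to 0.29, limma adjusted p = 0.479), 0.11 for daidzein against control (interval -0.04 to 0.26, limma adjusted p = 0.707) and 0.03 for genistein against daidzein (interval -0.11 to 0.18, limma adjusted p = 0.939), and the sign of the last turned to -0.03 with the values as deposited and -0.01 with median centring. Over 90% of the tested probe sets had a larger SD in each diet.

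The order of the diets by mean level differed between the genes. Hsd3b5 and Dhrs7l1 were lowest with genistein, with daidzein and control overlapping above it, and for Hsd3b5 genistein rat 4 reached the daidzein range. Hsd11b1 and Dhrs7 ran genistein, control, daidzein from low to high, with control overlapping both other diets. Hsd17b2 and Hsd17b11 ran control, daidzein, genistein, each neighbour overlapping the next, and Hsd17b13 ran daidzein, genistein, control with all 3 overlapping.

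Genistein against control called Hsd3b5 and Dhrs7l1 among the 7, both lower (limma), where 0.322% of the 18625 probe sets were called in either direction and 0.172% lower. Since both genes were chosen for this, nothing is read from it. The groups did not overlap for Hsd3b5 and Dhrs7l1, both lower, against 2.57% of all tested in either direction and 1.35% lower. An unadjusted p under 0.05 was reached by 5 of 7, where 11% of all tested did, and the median log2 change of the 7 was -0.46, where that of all tested was 0.00. Both include Hsd3b5 and Dhrs7l1 and are given as a description; the other 3 with such a p were Hsd11b1, Hsd17b2 and Dhrs7. Genistein against daidzein called Dhrs7l1 alone among the 7 (limma), where 0.113% of all tested were called in either direction and 0.0805% lower. The groups did not overlap for 3 of 7 (Dhrs7l1, Hsd11b1 and Dhrs7, all lower with genistein), against 2.03% of all tested in either direction and 1.06% lower, and 4 of 7 (Hsd3b5 besides these 3) had an unadjusted p under 0.05, against 9.37%. These counts too include Hsd3b5 or Dhrs7l1, chosen for low levels with genistein, and nothing is read from them. Both comparisons with genistein share the genistein rats.

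Daidzein against control called none of the 7 (limma), where 3 probe sets (0.0161%) were called, and 1 of the 7, Hsd17b13, had an unadjusted p under 0.05, against 8.25% of all tested. The groups overlapped for all 7, where 1.88% of all tested did not overlap. Hsd3b5 differed by -0.35 (interval -1.87 to 1.18, limma adjusted p = 0.924) and Dhrs7l1 by -0.13 (interval -1.69 to 1.43, limma adjusted p = 0.972). Those intervals are wide because the fit shares 1 spread over the diets and the genistein rats enlarge it: with only the 10 arrays of daidzein and control, the SE was 0.25 in place of 0.71 for Hsd3b5 and 0.25 in place of 0.73 for Dhrs7l1.

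**Figure D3:**
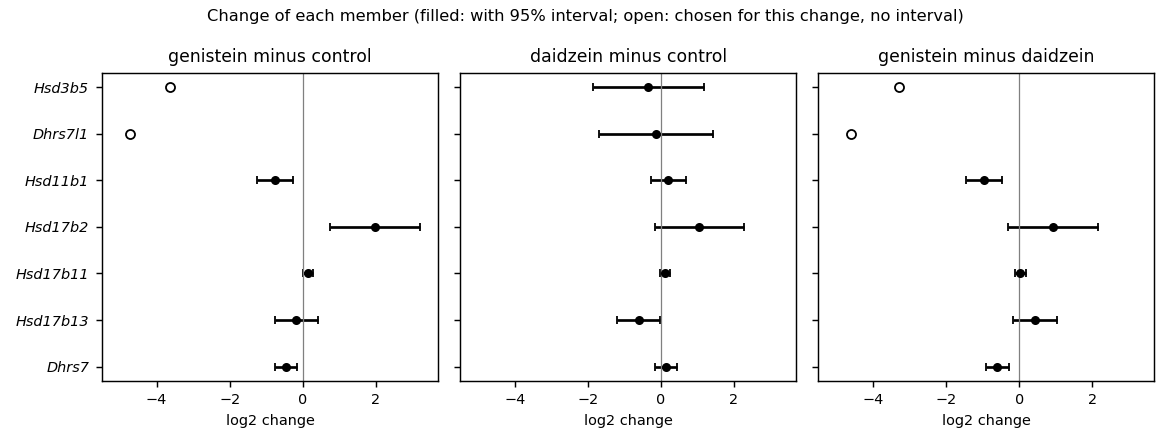
Log2 change of the 7 genes in the 3 comparisons, with 95% intervals of the limma fit as bars (n = 5 rats per diet). Open circles mark Hsd3b5 and Dhrs7l1 in comparisons with genistein, given without interval; among the others, intervals exclude 0 for Hsd11b1 and Dhrs7 with genistein against both other diets, for Hsd17b2 with genistein against control and for Hsd17b13 with daidzein, all without being called.

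The spread between rats was itself uneven. With genistein, 0.0966% of the tested probe sets had a larger SD than Dhrs7l1 and 0.123% a larger SD than Hsd3b5, while in control 62.1% had a larger SD than Dhrs7l1 and 17.2% a larger SD than Hsd3b5. Both genes were chosen on these genistein values, so their SD with genistein is a description. For Dhrs7l1 it also takes in genistein rats 2 and 3, whose levels (-0.61 and -0.38) lay under the filter level. For Dhrs7l1 the SD was 0.62 with daidzein, which 4.84% exceeded. Hsd17b2 was variable in all 3 diets (SD 1.25 with genistein, 0.76 with daidzein and 0.93 in control). Over all tested probe sets the median SD was 0.21 with genistein, 0.20 with daidzein and 0.20 in control.

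**Figure D4:**
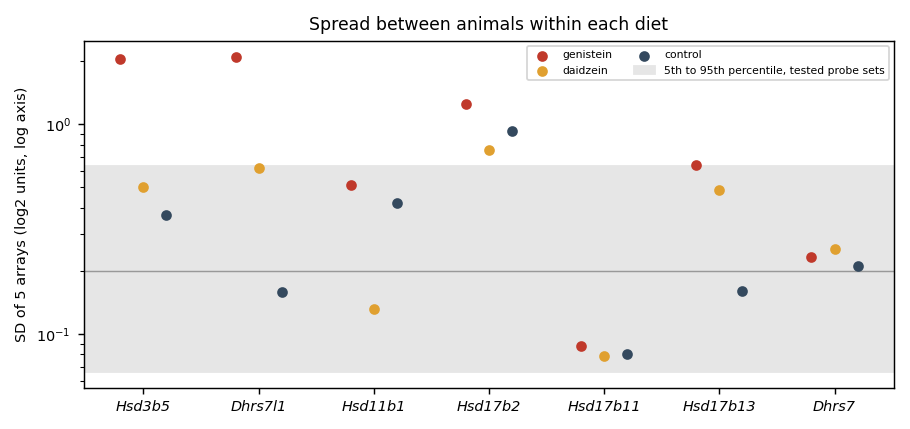
SD of 5 rats (log2 units, log axis) for each gene and diet, genistein, daidzein and control from left to right; the grey band runs from the lowest 5th to the highest 95th percentile of the 3 diets over 18625 tested probe sets, and the line is the mean of their medians. Hsd3b5 and Dhrs7l1, chosen for their low levels with genistein, lie far above the band with genistein (2.05 and 2.11). Hsd17b2 lies above the band in all 3 diets.

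Genes most like a member are those with the highest positive correlation among tested genes with a symbol, predicted loci left out. The genes most like Hsd3b5 over the 15 rats were Cyp2c11, the male-specific steroid hydroxylase of rat liver (Pearson's r 0.98), Ust5r, an organic ion carrier (0.98), Hao2, a hydroxyacid oxidase (0.97), Dhrs7l1 (0.96) and Cyp3a2, a steroid-hydroxylating cytochrome P450 (0.96). With diet means taken off, Cyp2c11 (0.95), Hao2 (0.95), Ust5r (0.94), Cyp3a2 (0.92) and Cyp2c13 (0.91) came first. For Dhrs7l1 they were Slc22a8, an organic anion transporter (0.97), Ust5r (0.97), Hsd3b5 (0.96), Obp3, a lipocalin (0.96), and Hao2 (0.95), and with diet means taken off Hao2 (0.94), Obp3 (0.90), Hsd3b5 (0.89), Ust5r (0.89) and Slc22a8 (0.88). Cyp2c11 had 5.94, 6.05, 6.18, 7.82 and 7.51 in genistein rats 1 to 5, against 7.81 to 8.07 in daidzein rats and 7.92 to 8.15 in control rats. Genistein rats 1, 2 and 3 were the low ones, and rat 4 lay among the daidzein rats. Cyp2c11 was picked for its correlation with Hsd3b5 on these same arrays, so nothing is read from the shared order.

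Hsd11b1 was most like Rdh16, a retinol dehydrogenase of the same enzyme family (r = 0.95), and Hsd17b2 was most like Marchf6, a ubiquitin ligase of the endoplasmic reticulum (0.97). Dhrs7 was most like Fam89a (0.85), Hsd17b11 like Rpl7, a ribosomal protein (0.83), and Hsd17b13 like Nabp1, a single-strand DNA-binding protein (0.80). Rdh16 had 1.45, -0.17, 0.41, 2.54 and 1.88 in genistein rats 1 to 5, against 3.25, 2.76, 3.39, 3.32 and 2.97 in daidzein rats and 3.00, 3.19, 3.44, 3.45 and 1.88 in control rats. All genistein rats were below all daidzein rats and control rat 5 was low, as for Hsd11b1. Of all tested probe sets 2.03% did not overlap between these diets, 1.06% being lower with genistein. Rdh16 was picked for its correlation with Hsd11b1 on these same arrays, so nothing is read from the likeness. Its log2 change was -1.92 for genistein against daidzein (limma adjusted p = 0.101) and -1.77 for genistein against control (limma adjusted p = 0.105), not called in either.

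None of the other enzymes listed for the family was called, which is near the share of all tested probe sets (0.322% for genistein against control, 0.0161% for daidzein against control and 0.113% for genistein against daidzein) and so no result about them. Of 19 other hydroxysteroid enzymes 15 were measured and 12 tested, with 0 calls in each of the 3 comparisons (limma); the median log2 change was -0.09 for genistein against control, -0.03 for daidzein against control and -0.11 for genistein against daidzein, with single values from -0.32 to 0.67. Hsd17b10, a mitochondrial dehydrogenase (-0.25, limma adjusted p = 0.221), and Nsdhl, of cholesterol synthesis (-0.25, 0.278), had the lowest p with genistein against control. Hsd3b7, of bile acid synthesis, had a change of 0.67 with daidzein against control (adjusted p = 0.481). Of 37 other short-chain dehydrogenases 33 were measured and 30 tested, and none was called either. Their medians were -0.02 for genistein against control, 0.07 for daidzein against control and -0.06 for genistein against daidzein, and with genistein against control 13 were above 0 and 17 below.

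Dhrs4, a peroxisomal carbonyl reductase, had the lowest p of that group with genistein against control (log2 change -0.35, limma adjusted p = 0.0656), and was not called. It had 4.00 to 4.17 in genistein rats, against 4.35 to 4.61 in control rats, with no overlap. In this comparison 2.57% of all tested probe sets did not overlap, and Dhrs4 was picked for its p, so nothing is read from this. Sdr42e1 had a change of 1.02 (adjusted p = 0.180) and Rdh5, a retinol dehydrogenase, -0.53 (adjusted p = 0.198). Between the isoflavones the lowest p belonged to the fatty acid enzyme Decr2 (-0.40, adjusted p = 0.0879), Rdh5 (-0.71, 0.0941), Rdh16 and the peroxisomal reductase Pecr (-0.34, 0.103).

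Of 14 genes for glucocorticoid activation and response, 13 were tested and none was called in a comparison (limma), again near the share of all tested. With genistein against control Mt2A, a metallothionein, had a change of 1.99 (adjusted p = 0.0709), Mt1 of 0.79 (0.0905), Sgk1, a kinase, of -1.92 (0.152) and Tat, tyrosine aminotransferase, of -1.02 (0.222). Mt2A had 3.66, 4.67, 5.71, 3.36 and 4.81 in genistein rats 1 to 5, against 2.34, 2.37, 2.01, 1.90 and 3.62 in control rats. Control rat 5, low in Hsd11b1, was the highest control for Mt2A and overlapped the genistein rats. The same rat was the highest control for Mt1 (0.89) but the lowest for Sgk1 (2.69) and Tat (4.46). Whether any of these goes with Hsd11b1 was not tested. The median change of the 13 was -0.01, with 6 above 0.

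Lists of genes assigned to a male or a female pattern of rat liver were set beside the 7. All rats here were male, so whether each listed gene differs by sex was not tested. Of 12 male-pattern genes tested, Ust5r was called lower with genistein against control (-2.53, limma adjusted p = 0.0450) and none was called higher, where 0.322% of all tested were called. Akr1c14, a hydroxysteroid dehydrogenase of the aldo-keto family (0.63, adjusted p = 0.0729), and Cyp2c23 (0.17, adjusted p = 0.654) had changes above 0, and the other 10 were below 0. The median of the 12 was -0.71 with genistein against control, -0.05 with daidzein against control and -0.71 with genistein against daidzein, and the mean level of the list was 4.47 to 5.99 in genistein rats, against 5.98 to 6.35 in daidzein rats and 6.12 to 6.31 in control rats. Of 10 female-pattern genes tested, Sult2a6, a steroid sulfotransferase (3.75, adjusted p = 0.00891), Cyp2a1, a steroid hydroxylase (1.63, 0.0102), and Prlr, the prolactin receptor (2.48, 0.0340), were called higher with genistein against control and none lower. Of all tested 0.15% were called higher. With only the 10 arrays of genistein and control in the fit, 0 of all tested probe sets were called, so the calls of both lists were lost. Fmo1 (-0.51, adjusted p = 0.539) and Ghr (-0.12, adjusted p = 0.780) had changes below 0, and 8 of 10 were above 0. The list's medians were 1.12 for genistein against control, 0.04 for daidzein against control and 1.05 between the isoflavones. None of either list was called with daidzein against control or between the isoflavones (limma). Of all tested probe sets 0.0161% and 0.113% were called in these comparisons, so 0 calls is no result about the lists. Cyp2c23 and Fmo1 are named for their sign, after their values were seen. The lists were written with these changes already known and are no independent evidence of a direction.

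**Figure D5:**
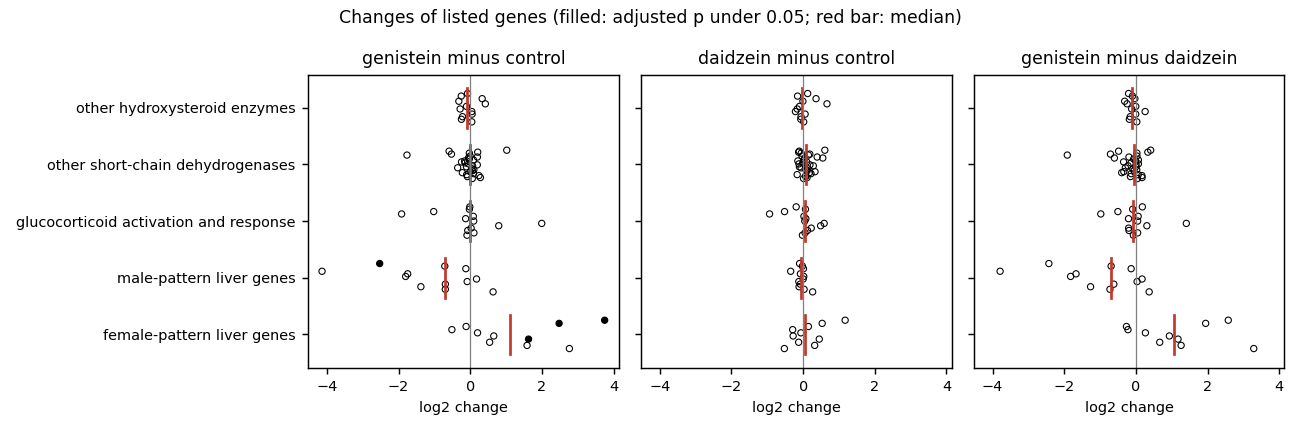
Log2 change of each tested gene in 5 lists for the 3 comparisons; filled points were called (limma adjusted p under 0.05) and red bars are list medians. The other hydroxysteroid and short-chain enzymes lie mostly near 0, with Rdh16 furthest below at -1.77 with genistein against control, and the male- and female-pattern lists have medians of -0.71 and 1.12 in that comparison.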

How the data were processed

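The authors deposited 1 table of 15 arrays and 31099 probe sets. Its unit was taken as a score, since the values behave as a log signal standardized within each array. Labelling was the one-cycle Affymetrix protocol, per the labels. The background correction, probe summary and scale are not given in the sources used here. A scale was sought for each array that makes its repeated values evenly spaced on the linear scale, and 375 of 375 gaps were then whole steps within 0.001. The mean scale, 2.60 log2 units per deposited unit (2.54 to 2.79), turned scores into log2 units. Array medians ran from 0.00111 to 0.127 as deposited, so arrays were quantile normalized. Without the 57 control probe sets, those whose mean level reached the 40th percentile were tested. Of all values 260 were missing, and the tested probe sets lacked none.

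A limma model (3.58.1, R 4.3.3) with 3 diets was fitted over all 15 arrays (12 residual and 2.58 prior degrees of freedom), with Benjamini-Hochberg adjustment over 18625 probe sets per comparison. SE, 95% intervals and adjusted p come from it; SD is that of 5 arrays. On simulated data the fit recovered 82, 85 and 85 of 100 probe sets moved by 1 log2 unit. The order is genistein and daidzein each against control, then genistein against daidzein. Of 100 moved by 2 the fit recovered 93, 96 and 95, and there were 10, 13 and 11 false calls. Recovery for genes whose SD differs between diets, such as Dhrs7l1 (2.11 with genistein, 0.16 in control), was not tested.

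The members and lists were chosen with earlier results of these data known. Named genes are the members, and the called genes and up to 4 of lowest p in each list. Also named are the 5 genes most positively correlated with Hsd3b5 and with Dhrs7l1 (also after diet means were taken off), and 1 for each other member. Correlated genes were sought among tested genes with a symbol, and predicted loci were left out. A gene was represented by its brightest probe set. The array annotation supplied the symbols (20826 probe sets with 1 symbol, 436 with several, 9780 with none), of which 20758 matched the current rat table. Arrays with the same title number were compared on residuals: 1 of 15 pairs correlated above 0.1 (r from -0.163 to 0.109), so the number was not used as a pairing. The titles call the arrays biological replicates. Cross-hybridisation within gene families was not tested.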

Additional observations from a re-analysis of the deposited data

Results flagged for a closer look

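For Hsd11b1, control rat 5 had a level of 5.88, apart from the other 4 control rats at 6.66 to 6.98. For Hsd17b2 the same rat had 5.28, apart from 3.00 to 3.56 in the other 4. Both gaps exceeded Dixon's 95% critical value for 5 samples (0.71). Of 21 groups examined (7 genes in 3 diets) these 2 were marked, and chance marks about 1 in 20. This rat was also low in Rdh16 (1.88) among the controls, but Rdh16 was picked for its correlation with Hsd11b1, so nothing is read from that. Control rat 5 was the highest control for Mt2A (3.62) and Mt1 (0.89) and the lowest for Sgk1 (2.69) and Tat (4.46).

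Dhrs7l1 differed between genistein and daidzein in the whole-table limma fit (log2 change -4.61), with all 5 genistein rats below all 5 daidzein rats. The gene was chosen with its low level in genistein rats known, so this is a description.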

How the results depend on the processing

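Of 25 alternatives, 10 changed a setting and 15 left out 1 array each. Hsd3b5 and Dhrs7l1 kept a negative log2 change against control in all 25 (-4.33 to -3.13 and -5.53 to -4.25) and against daidzein (-3.98 to -2.78 and -5.40 to -4.12). Signs turned for Hsd17b13 with genistein against control (0.0947 without genistein rat 5; -0.298 to 0.0947 over single arrays left out), for Dhrs7l1 with daidzein against control (0.0456 without daidzein rat 2 and 0.011 without daidzein rat 4; -0.313 to 0.0456 over single arrays) and for Hsd17b11 between the isoflavones (-0.0287 with values as deposited and -0.0104 with median centring).

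The 60 calls of genistein against control became 34 with median centring, 14 with no filter, 124 with the 60th percentile filter, 0 with only the 10 arrays compared (limma; 1896 at an unadjusted p under 0.05), 110 with trend and robust moderation, 140 with array weights and 17 with the replicate block, and 10 to 203 without 1 array (10 without control 1, 203 without genistein 4; the change was within 1.5 times only without control 5, daidzein 5 or genistein 5). Calls among the 7 genes became 1 with no filter, 0 with only the 10 arrays (5 unadjusted) and 1 with the replicate block, and 0 to 2 without 1 array: 0 without control 1 or control 3, 2 without genistein 4 or genistein 5, and 1 without any other single array. In the main fit the called genes were Hsd3b5 and Dhrs7l1, chosen for low levels with genistein. Nothing is read from the counts of their calls.

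The 3 calls of daidzein against control became 7 with the 60th percentile filter, 6 with trend and robust moderation, 7 with array weights and 2 with the replicate block, and 2 to 8 without 1 array (8 without daidzein 1).

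The 21 calls between the isoflavones became 9 with median centring, 35 with 16 added to intensities, 3 with no filter, 67 with the 60th percentile filter, 2 with only the 10 arrays, 53 with trend and robust moderation, 74 with array weights and 2 with the replicate block, and 3 to 136 without 1 array (3 without daidzein 3, 136 without genistein 4, and a change of over 1.5 times also without control 2 or 5, daidzein 2, 4 or 5, or genistein 1 or 2). Among the 7 genes the call became 0 with no filter, the 10 arrays or the block (4 unadjusted in each), 2 with array weights, and 0 to 3 without 1 array: 3 without genistein 4, and 0 without genistein 1, 2 or 3 or any single daidzein array. The call in the main fit was Dhrs7l1, chosen for its low level with genistein, so nothing is read from these counts. The causes were not tested, beyond the fewer probe sets or arrays that some alternatives hold.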
